A study of Mus musculus with 14 samples.

Results

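Integrins are the transmembrane receptors that hold cells to the extracellular matrix and to other cells, and laminins and nidogens are the large glycoproteins that many of them meet in the basement membrane. The genes described here are the integrin alpha and beta chains, the laminin chains and both nidogens. They were taken by gene symbol alone, from probe sets with a single symbol, as Itga with any ending, Itgb1 to Itgb8, Lama1 to Lama5, Lamb1 to Lamb3, Lamc1, Lamc3, Nid1 and Nid2. This gave 36 genes of the 18193 with a single symbol on the array: 7 integrin chains known mainly from blood cells, 17 other integrin chains, 10 laminin chains and 2 nidogens. Each gene was read from 1 probe set, the one with the highest mean over all arrays. Of the 36 genes, 31 were bright enough to be tested, among 13450 genes tested in all. Itgae, Itgb6, Itgb8, Lama1 and Lamb3 lay in the dimmest 0.333 of probe sets and are described separately. Itga11 and Itgad were not analysed here.

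The series holds 14 Affymetrix arrays of total RNA from cells sorted out of mouse bone marrow, and asks how stromal cells of the marrow respond to granulocyte colony-stimulating factor (G-CSF), the cytokine that raises neutrophil numbers and mobilises stem cells into the blood. All mice carried the pOBcol2.3-GFP transgene, in which a fragment of the type I collagen promoter drives green fluorescent protein (GFP) in osteoblasts, the bone-forming cells. They were C57BL/6J animals aged 6 to 8 weeks, with a wild type genotype in the labels. Osteoblasts were sorted as CD45- ter119- CD31- GFP+ and endothelial cells as CD45- ter119- GFP- CD31+, after collagenase digestion. The groups were GFP+ cells after G-CSF (3 arrays), untreated GFP+ cells (3 arrays), CD31+ cells after G-CSF (4 arrays) and untreated CD31+ cells (4 arrays). G-CSF was given under the skin at 250 ug/kg for 5 days per the sample titles, and the untreated mice had vehicle. The protocol text attached to the untreated arrays gives 7 days for G-CSF in place of 5. The labels do not say that replicates came from separate animals, nor how many animals were pooled, so a p-value here measures the spread between these arrays only, and their number limits the precision. In sorted bulk RNA, fewer cells of a type and less RNA per cell cannot be told apart.

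An integrin is a pair of 1 alpha and 1 beta chain, and the pair sets what it binds. Alpha chains fall into collagen-binding, laminin-binding and RGD-binding groups, the last named after the short peptide found in fibronectin and vitronectin. Laminins are trimers of an alpha, a beta and a gamma chain that assemble into a sheet under endothelium, around muscle and around nerves, and nidogens tie this sheet to the network of type IV collagen. Osteoblasts sit on a collagen matrix that they secrete themselves, whereas endothelial cells lie on a laminin-rich basement membrane.

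Values are log2 of the deposited intensity plus 16, called the signal below. A probe set's brightness depends on its own sequence, so signals are compared between groups for the same gene and not between genes. A difference is the mean signal of the first-named group minus that of the second, and its fold is on the same scale, which understates the change of dim genes. A gene was called when its limma p-value, adjusted over all 13450 genes, was under 0.05. Endothelial markers separated the sorts: the mean signal of 8 endothelial markers was between 8.12 and 9.01 in GFP+ arrays, and between 12.01 and 12.58 in CD31+ arrays. The mean of the 6 measured osteoblast markers of 9 was between 13.13 and 14.76 in GFP+ arrays. It was between 9.81 and 13.54 in CD31+ arrays, so the ranges overlapped. Of these 6 osteoblast markers 1 was higher in untreated GFP+ than in untreated CD31+ cells and 5 were not called, whereas all 6 were higher in GFP+ cells after G-CSF. Neutrophil markers had a mean between 11.21 and 14.47 over all arrays, although CD45+ cells were sorted away. Among untreated GFP+ arrays, replicate 2 stood apart on blood genes, with neutrophil, monocyte and B lineage means of 14.47, 11.66 and 10.05. The other untreated GFP+ arrays had neutrophil means of 11.69 and 11.21, monocyte means of 8.35 and 8.56, and B lineage means of 6.40 and 7.40. Untreated CD31+ replicate 1 had a skeletal muscle mean of 13.68, against 7.82 to 9.74 in the other untreated CD31+ arrays. Calls that change without these arrays are given with and without them.

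Promoter sequence was at hand for 23 of the 36 genes, from RefSeq on mouse build GRCm38.p6, as windows of 300 bases around a start site listed for the gene, 26 windows in all. The windows need not lie at the outermost start: that of Itgav lies inside the annotated gene. Shown are the promoters of the RGD-binding chain Itgav and the collagen-binding chain Itga10, both higher in GFP+ cells in both conditions, and of the laminin chain Lama5 and the nidogen Nid1, both lower in GFP+ cells in both conditions. Itgav lies at chr2:83724147-83724446 on the plus strand, Itga10 at chr3:96645334-96645633 on the plus strand, Lama5 at chr2:180225810-180226109 on the minus strand and Nid1 at chr13:13437352-13437651 on the plus strand. Each is written in the direction of its gene, and capitals mark GGAAG on either strand, the letters at the core of the sites of ETS factors, a family with several members known from endothelium.
Itgav: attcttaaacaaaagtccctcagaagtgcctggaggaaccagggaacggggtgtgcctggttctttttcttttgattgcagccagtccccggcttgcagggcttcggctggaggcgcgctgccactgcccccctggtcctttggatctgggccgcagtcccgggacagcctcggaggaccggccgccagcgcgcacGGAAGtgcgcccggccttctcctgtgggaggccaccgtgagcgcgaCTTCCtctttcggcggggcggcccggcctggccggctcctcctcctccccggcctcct
Itga10: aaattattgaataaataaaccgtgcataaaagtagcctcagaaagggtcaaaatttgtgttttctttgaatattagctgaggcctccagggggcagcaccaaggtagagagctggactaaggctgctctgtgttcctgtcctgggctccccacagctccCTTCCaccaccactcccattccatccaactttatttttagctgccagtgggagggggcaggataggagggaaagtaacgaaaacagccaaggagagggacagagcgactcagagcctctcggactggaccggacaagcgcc
Lama5: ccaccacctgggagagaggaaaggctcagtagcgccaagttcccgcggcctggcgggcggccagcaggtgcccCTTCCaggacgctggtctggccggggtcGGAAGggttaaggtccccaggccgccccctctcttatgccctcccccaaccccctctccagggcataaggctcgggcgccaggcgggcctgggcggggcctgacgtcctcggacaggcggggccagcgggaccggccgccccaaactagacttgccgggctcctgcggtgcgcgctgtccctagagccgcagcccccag
Nid1: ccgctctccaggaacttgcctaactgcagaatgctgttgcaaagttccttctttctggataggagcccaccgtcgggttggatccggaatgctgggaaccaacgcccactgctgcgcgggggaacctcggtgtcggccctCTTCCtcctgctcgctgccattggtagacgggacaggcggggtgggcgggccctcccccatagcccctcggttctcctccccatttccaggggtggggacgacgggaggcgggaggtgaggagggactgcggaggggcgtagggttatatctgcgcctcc
GGAAG stood in 20 of the 26 windows, and in 71.4% of all 32851 promoters of the table, so a match is common in any window of this length. The Itgav and Lama5 windows held it 2 times each and the Itga10 and Nid1 windows 1 time each, on both sides of the difference between sorts. TGTGGT, the letters of the RUNX site known from osteoblast genes, stood in 3 of the 26 windows and in 16.8% of all. GGGCGG, the GC box, stood in 13 of the 26 and in 35.7% of all, and TATAAA in 0 of the 26 and in 13.6% of all. All motifs were searched on both strands and counted separately, whether or not matches of different motifs shared bases.

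Untreated GFP+ cells differed from untreated CD31+ cells in many of these genes, and the differences ran both ways. Of the 31 genes tested, 5 were higher in GFP+ cells, 8 were lower and 18 were not called, where 26.4% of all genes tested were called, 13.6% as higher and 12.8% as lower. The 5 higher genes were Itgav, Itgb5, Itga10, Itga4 and Lama2, and the 8 lower genes were Itga6, Itga7, Itgb4, Itga1, Lama4, Lama5, Nid1 and Nid2. The signals of the groups did not overlap for 15 of the 31, against 32.6% of all genes tested. The median difference over the 31 genes was -0.59, beside 0.00 over all genes tested. Among laminins and nidogens 1 of 10 tested was higher and 4 were lower, and among integrins other than those of blood cells 4 of 15 were higher and 4 were lower.

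**Figure D1:**
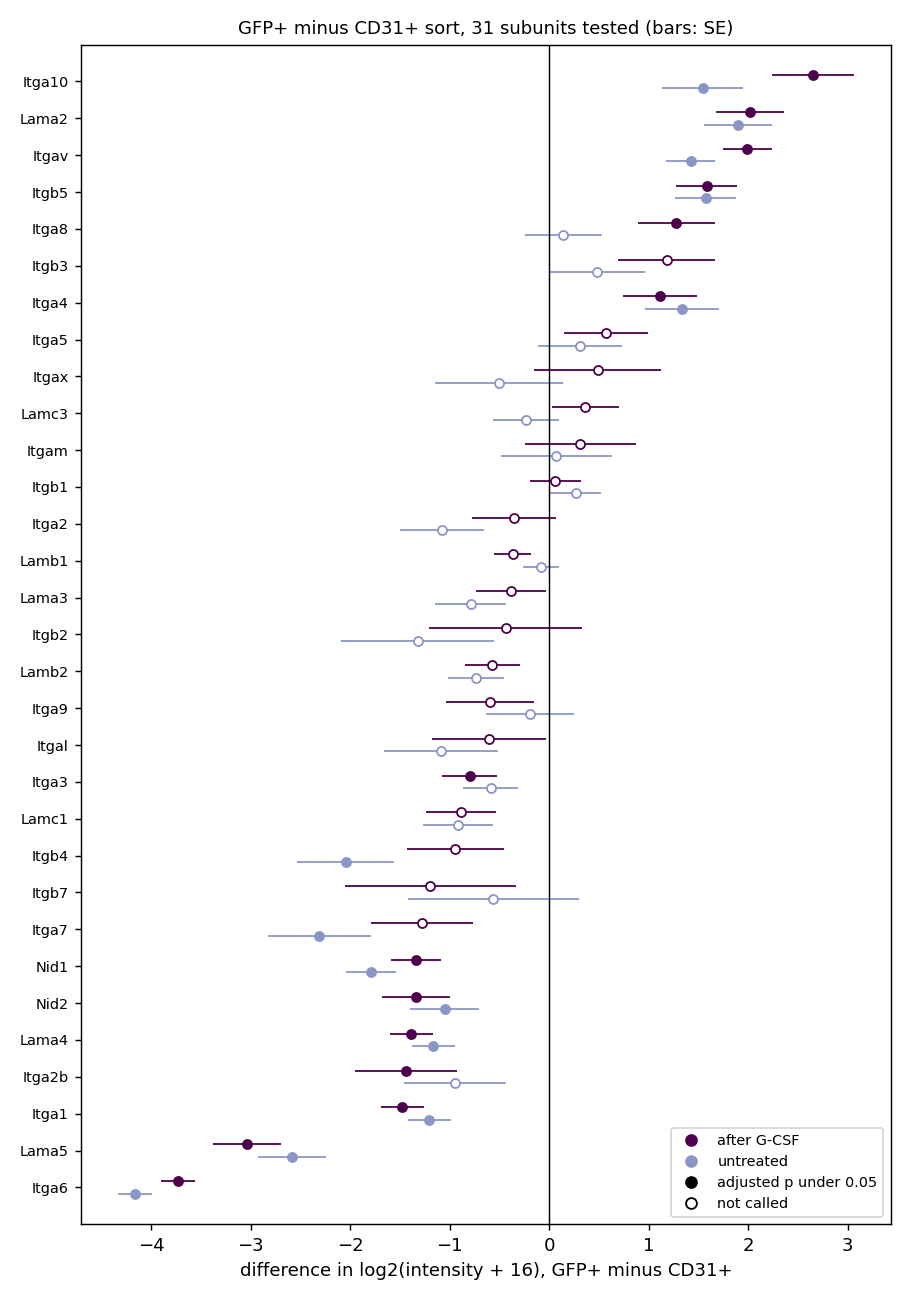
Difference in signal between GFP+ and CD31+ cells for each gene tested, GFP+ minus CD31+ (x axis, log2 units, bars ± SE), after G-CSF and in untreated mice; filled points were called. Itga6 lies farthest to the left, at -3.73 after G-CSF and -4.16 in untreated cells, and Itga10 farthest to the right after G-CSF at 2.65.

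Of the RGD-binding side of the family, Itgav and its partner Itgb5, which together form a vitronectin receptor, were both higher in GFP+ cells. Itgav had signals of 13.24, 12.55 and 13.40 in untreated GFP+ cells, against 11.86, 11.24, 11.81 and 11.67 in untreated CD31+ cells. Every GFP+ array lay above every CD31+ array, and the difference was 1.42 ± 0.24 (SE), or 2.67-fold (adjusted p = 0.000543). Itgav has 4 probe sets above the brightness filter, all with the same sign, and their differences ran from 0.26 to 1.42. Averaged over its probe sets, Itgav differed by 0.73 and was not called (adjusted p = 0.0698). Itgb5 had signals of 12.71, 12.24 and 12.53 in untreated GFP+ cells, against 11.12, 11.44, 10.66 and 10.45 in untreated CD31+ cells. These groups did not overlap either, and GFP+ cells were 1.57 ± 0.31 higher, or 2.98-fold (adjusted p = 0.00141). Itgb3, the beta chain of the other classic vitronectin receptor and abundant on osteoclasts and platelets, had signals of 9.73, 8.69 and 9.51 in untreated GFP+ cells, against 8.38, 10.17, 9.0 and 7.78 in untreated CD31+ cells. Its groups overlapped and its difference of 0.48 ± 0.48 was not called (adjusted p = 0.523). Itga5, the main fibronectin receptor chain, had signals of 8.44, 8.97 and 9.27 in untreated GFP+ cells, against 8.44, 8.55, 8.35 and 9.0 in untreated CD31+ cells, and was not called (difference 0.31, adjusted p = 0.649). Its 3 probe sets above the brightness filter disagreed in sign, with differences from -0.12 to 0.31. Itga8, which pairs with Itgb1 to bind nephronectin, differed by 0.14 and was not called (adjusted p = 0.835).

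The collagen-binding chains went in opposite directions. Itga10, best known from cartilage, had signals of 12.54, 11.30 and 12.09 in untreated GFP+ cells, against 10.68, 9.48, 10.97 and 10.63 in untreated CD31+ cells. The groups did not overlap, and GFP+ cells were 1.54 ± 0.41 higher, or 2.91-fold (adjusted p = 0.0116). Without untreated GFP+ replicate 1 the difference was 1.26 and not called (adjusted p = 0.0677 in place of 0.0116). Itga1, a receptor for type IV collagen, had signals of 9.52, 9.40 and 9.21 in untreated GFP+ cells, against 10.32, 10.78, 11.02 and 10.20 in untreated CD31+ cells. GFP+ arrays all lay below CD31+ arrays, by 1.21 on average (difference -1.21 ± 0.21, 2.31-fold, adjusted p = 0.000682). Itga2, a receptor for fibrillar collagen found on platelets and epithelium, had a difference of -1.08 ± 0.42 and missed the threshold (adjusted p = 0.0743), with groups that did not overlap. Itga2 passed it without untreated CD31+ replicate 1, the array with high muscle genes (-1.28, adjusted p just under 0.05), without treated CD31+ replicate 3 (adjusted p = 0.0346), and in 5 other alternatives.

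The laminin-binding chain Itga6 differed most of all 31 genes. This chain pairs with Itgb1 or Itgb4 and is abundant on endothelium and epithelium. Its signals were 8.73, 9.43 and 9.12 in untreated GFP+ cells, against 13.26, 13.29, 13.27 and 13.22 in untreated CD31+ cells. The CD31+ arrays had an SD of 0.03, and the GFP+ mean was lower with a difference of -4.16 ± 0.17, or 17.9-fold (adjusted p = 3.32e-09). Both Itga6 probe sets gave this sign, at -4.16 and -3.87. Itga7, known from skeletal and smooth muscle, had signals of 6.51, 6.82 and 5.25 in untreated GFP+ cells, against 8.77, 9.44, 7.86 and 7.95 in untreated CD31+ cells. The groups did not overlap, and the difference was -2.31 ± 0.52, or 4.96-fold (adjusted p = 0.00381). Beside it, the muscle marker mean was higher in untreated CD31+ arrays, at 7.82 to 13.68, than in untreated GFP+ arrays, at 6.36 to 6.98. Without the CD31+ array that had the highest muscle mean, the Itga7 difference was -2.22 (adjusted p = 0.0115). The part of muscle in the rest was not tested. Itga3, a receptor for the laminins of epithelium and vessels, differed by -0.59 and was not called (adjusted p = 0.137), and its probe sets disagreed in sign.

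Among the beta chains, Itgb4, which pairs only with Itga6, was lower in GFP+ cells with its partner. Itgb4 had signals of 4.51, 5.51 and 4.32 in untreated GFP+ cells, against 7.00, 8.06, 6.35 and 5.90 in untreated CD31+ cells. The groups did not overlap, and the difference was -2.05 ± 0.49 (adjusted p = 0.00586). The GFP+ signals were below the brightness filter of 5.78, so no fold is given, and the difference was -3.18 with 1 added to the intensities in place of 16 and -1.12 with 64. Itgb1, the partner of most alpha chains, had signals of 10.71, 9.90 and 10.53 in untreated GFP+ cells, against 9.96, 10.14, 10.20 and 10.14 in untreated CD31+ cells. These overlapped, and the difference of 0.27 had a 95% interval from -0.28 to 0.81 (adjusted p = 0.497).

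Itga4, a chain that binds VCAM1 and fibronectin and is carried by blood cells and mesenchymal cells, had signals of 8.22, 10.24 and 8.54 in untreated GFP+ cells, against 7.89, 7.69, 7.81 and 7.26 in untreated CD31+ cells. The GFP+ arrays all lay above the CD31+ arrays, and the highest of them was replicate 2, the array with high blood-cell genes. With this array the difference was 1.34 ± 0.37, or 2.52-fold (adjusted p = 0.0149), and without it the difference was 0.71 (adjusted p = 0.0386). When only untreated arrays were fitted, Itga4 was not called (adjusted p = 0.061). Itga9, the other chain of this group, differed by -0.19 and was not called (adjusted p = 0.8).

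**Figure D2:**
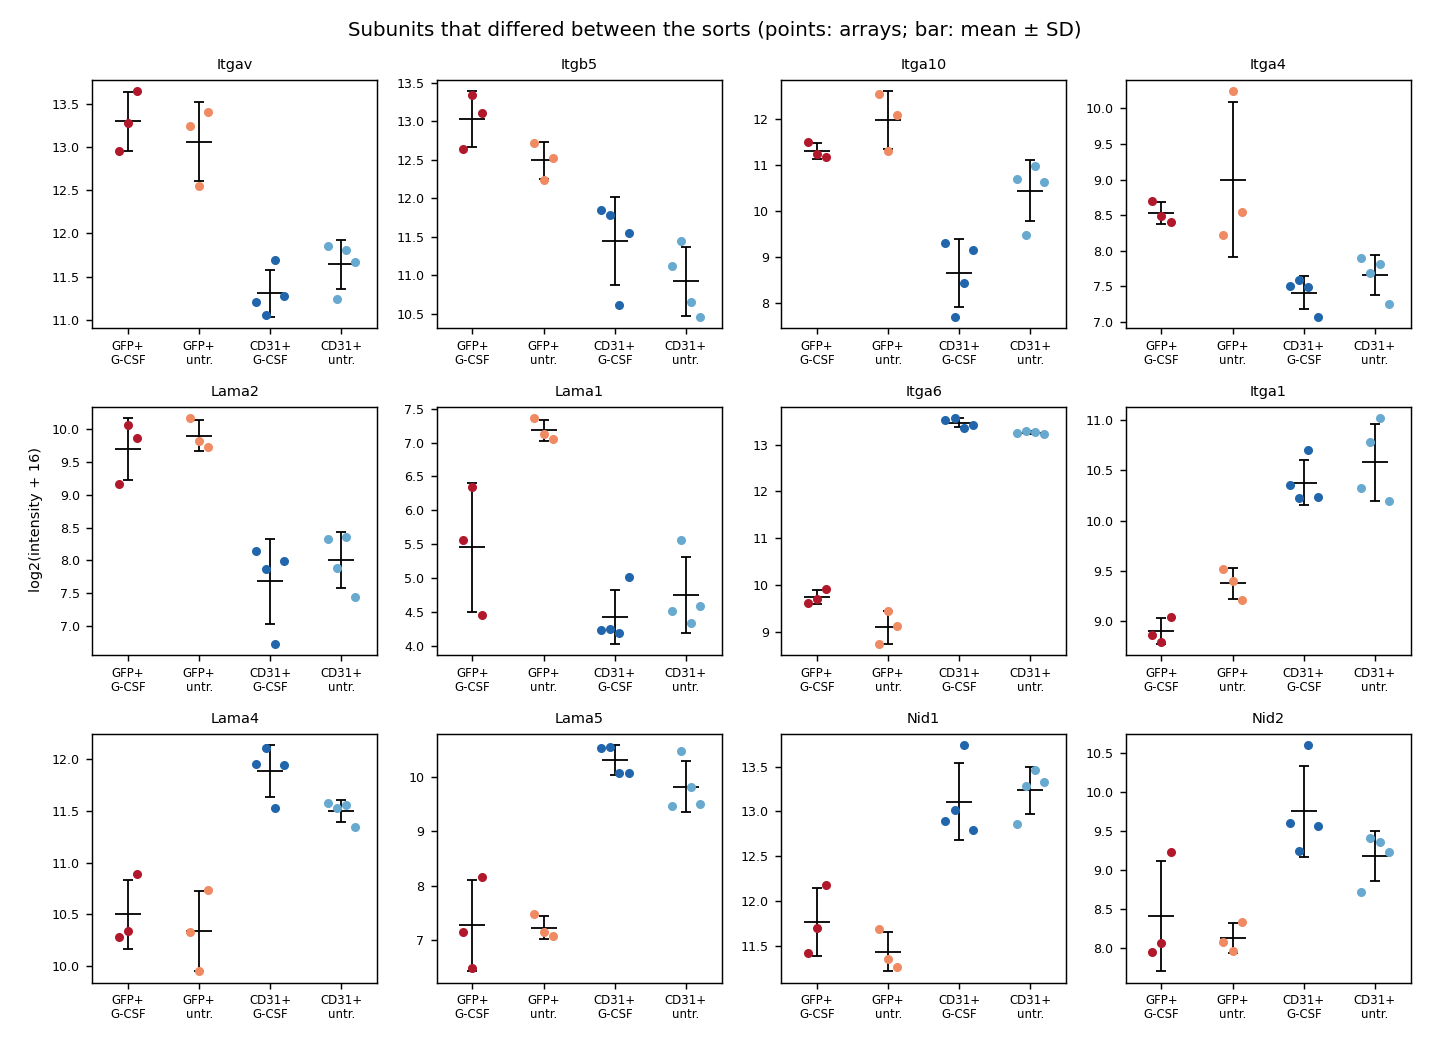
Signal of 12 genes on each array (y axis, log2 of intensity plus 16), in GFP+ and CD31+ cells after G-CSF and untreated; points are arrays, and bars are the mean ± SD of 3 or 4 arrays. For Itgav, Itgb5, Itga10, Itga4 and Lama2 both GFP+ groups lie above both CD31+ groups on average, for Itga6, Itga1, Lama4, Lama5, Nid1 and Nid2 below them, and Lama1, a dim probe set, is highest in untreated GFP+ cells at 7.06 to 7.36.

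The laminin alpha chains, which carry most of a laminin's binding sites for integrins, also divided between the sorts. Lama5, the chain of the laminins that underlie mature vessels, had signals of 7.47, 7.14 and 7.07 in untreated GFP+ cells, against 9.46, 10.47, 9.82 and 9.50 in untreated CD31+ cells. GFP+ arrays lay below CD31+ arrays without overlap, with a difference of -2.59 ± 0.34, or 6.02-fold (adjusted p = 5.48e-05). Lama4, the other alpha chain of endothelial basement membranes, had signals of 10.33, 9.95 and 10.73 in untreated GFP+ cells, against 11.58, 11.53, 11.56 and 11.35 in untreated CD31+ cells. It too was lower in GFP+ cells without overlap, by a difference of -1.17 ± 0.22, or 2.25-fold (adjusted p = 0.00096). Lama2, the alpha chain of muscle and nerve laminins and also made by mesenchymal cells, went the other way. Lama2 had signals of 10.16, 9.82 and 9.73 in untreated GFP+ cells, against 8.32, 7.89, 8.36 and 7.45 in untreated CD31+ cells. Its difference was 1.90 ± 0.34, or 3.72-fold higher in GFP+ cells, without overlap (adjusted p = 0.000766). Lama3, an epithelial chain, differed by -0.79 ± 0.36 and was not called (adjusted p = 0.121).

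The beta and gamma chains, which several laminins share, did not pass the threshold. Lamb1 had signals of 12.49, 12.07 and 12.34 in untreated GFP+ cells, against 12.36, 12.39, 12.62 and 12.16 in untreated CD31+ cells. The groups overlapped, and the difference of -0.08 had a 95% interval from -0.47 to 0.31 (adjusted p = 0.794). Lamb1 has 3 probe sets above the brightness filter, all with the same sign, and their differences ran from -0.57 to -0.08. Lamb2, which takes the place of Lamb1 in laminins of mature vessels and synapses, had signals of 11.85, 11.11 and 11.10 in untreated GFP+ cells, against 12.19, 12.24, 11.63 and 12.29 in untreated CD31+ cells. Its difference of -0.74 ± 0.28 was not called (adjusted p = 0.0665). Lamc1, the gamma chain of most laminins, had signals of 10.69, 8.56 and 9.44 in untreated GFP+ cells, against 10.45, 10.55, 10.67 and 10.25 in untreated CD31+ cells. The GFP+ arrays lay on both sides of the CD31+ arrays, and the difference of -0.92 ± 0.35 was not called (adjusted p = 0.0671). It rested on single arrays, being -1.48 and called without untreated GFP+ replicate 1 (adjusted p = 0.000973) and -0.42 and not called without replicate 2. Lamc3 differed by -0.23 and was not called (adjusted p = 0.665).

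Both nidogens were lower in GFP+ cells. Nid1 had signals of 11.69, 11.36 and 11.27 in untreated GFP+ cells, against 12.86, 13.28, 13.47 and 13.33 in untreated CD31+ cells, and Nid2 had signals of 8.08, 7.96 and 8.33 in untreated GFP+ cells, against 8.71, 9.41, 9.36 and 9.22 in untreated CD31+ cells. Neither pair of groups overlapped. The difference was -1.79 ± 0.25, or 3.46-fold, for Nid1 (adjusted p = 8.04e-05) and -1.05 ± 0.34, or 2.08-fold, for Nid2 (adjusted p = 0.0338). Nid2 was near the threshold, and leaving out any 1 of 6 arrays (untreated GFP+ replicates 1, 2 and 3 and untreated CD31+ replicates 2, 3 and 4) raised its adjusted p to between 0.0555 and 0.0901. Pericyte and smooth muscle markers, from cells that share the vessel's basement membrane, had a mean of 10.49 to 10.92 in untreated GFP+ arrays and 11.48 to 12.54 in untreated CD31+ arrays. Of these 7 markers, 3 were lower in GFP+ cells (Kcnj8, Myh11 and Rgs5), 1 was higher (Pdgfrb, at 1.29) and 3 were not called. Their part in the laminin and nidogen differences was not tested.

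The 5 dim genes were tested in a fit without the filter on brightness, over 18193 genes. Of these 19.1% were called between untreated sorts and 23.5% between sorts after G-CSF, 0.148% with G-CSF in GFP+ cells and 0.989% with G-CSF in CD31+ cells. Lama1, the alpha chain of early embryonic basement membranes, had signals of 7.36, 7.13 and 7.06 in untreated GFP+ cells, against 4.50, 5.57, 4.33 and 4.59 in untreated CD31+ cells. The groups did not overlap, and GFP+ cells were 2.44 ± 0.42 higher (adjusted p = 0.000584). All the CD31+ signals were below the filter level, so no fold is given. Itgb8, which helps activate the growth factor TGF-beta, was 1.46 ± 0.49 higher (adjusted p = 0.0461), with untreated GFP+ signals of 8.09, 5.93 and 6.07, of which replicate 1 alone was far above the CD31+ arrays at 5.06 to 5.60. Lamb3, an epithelial laminin chain, was 1.17 ± 0.34 higher (adjusted p = 0.022). Its signals were 5.77, 6.09 and 4.62 in untreated GFP+ cells, against 4.17 to 4.61 in untreated CD31+ cells, so replicate 3 lay close to the CD31+ arrays. The GFP+ mean of 5.50 was itself below the filter level. Itgae and Itgb6 were not called, with differences of -0.18 and 0.46. After G-CSF none of the 5 was called between sorts.

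After G-CSF the comparison of GFP+ with CD31+ cells took its means from the other 7 arrays, and its spread from all 14. It called 6 genes as higher in GFP+ cells and 8 as lower, with 17 of 31 not called. Of all genes 31.9% were called, 17.5% as higher and 14.4% as lower. The signals of the groups did not overlap for 18 of the 31, against 39.5% of all genes. The median difference was -0.44, beside 0.02 over all genes. In both conditions 5 genes were higher (Itgav, Itgb5, Itga10, Itga4 and Lama2), 6 were lower (Itga6, Itga1, Lama4, Lama5, Nid1 and Nid2) and 0 were called in opposite directions. These 11 make 84.6% of the genes called in untreated cells and 78.6% of those called after G-CSF, and over all genes the shares were 80.7% and 66.9%.

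Itga6 was again the most different, with signals of 9.61, 9.69 and 9.90 in GFP+ cells and 13.53, 13.57, 13.35 and 13.43 in CD31+ cells after G-CSF. The groups lay far apart, by -3.73 ± 0.17, or 13.3-fold (adjusted p = 4.2e-09). Lama5 had signals of 7.15, 6.49 and 8.16 in GFP+ cells and 10.53, 10.55, 10.06 and 10.06 in CD31+ cells after G-CSF, a difference of -3.04 ± 0.34, or 8.21-fold (adjusted p = 8.73e-06). Itgav had signals of 12.96, 13.28 and 13.65 in GFP+ cells and 11.21, 11.05, 11.69 and 11.28 in CD31+ cells after G-CSF, a difference of 1.99 ± 0.24, or 3.97-fold (adjusted p = 2.01e-05). For all of these the groups did not overlap. The remaining shared calls had the same signs as in untreated cells. Itga10 differed by 2.65 ± 0.41, or 6.28-fold (adjusted p = 0.000161), Lama2 by 2.02, or 4.04-fold, and Itgb5 by 1.58, or 3.00-fold. Nid1 and Nid2 both differed by -1.34 (adjusted p = 0.000712 and 0.00742), Lama4 by -1.39 (adjusted p = 0.000173) and Itga1 by -1.48 (adjusted p = 9.01e-05). Itga4 differed by 1.12 (adjusted p = 0.0318), a call lost without any 1 of the treated GFP+ arrays or without treated CD31+ replicate 1 or 4.

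Itga8, Itga3 and Itga2b were called after G-CSF and not in untreated cells, and Itga7 and Itgb4 in untreated cells and not after G-CSF. Itga8 had signals of 9.95, 10.90 and 10.65 in GFP+ cells and 9.58, 9.59, 9.69 and 8.03 in CD31+ cells after G-CSF. The GFP+ arrays were all above, and the difference was 1.28 ± 0.39 (adjusted p = 0.0209), lost without treated GFP+ replicate 2 or 3 (adjusted p = 0.091 and 0.07). Itga3 differed by -0.80 ± 0.28 (adjusted p = 0.038), and by -0.52 without GFP+ replicate 1 after G-CSF, where it was not called (adjusted p = 0.184). The Itga3 call was also lost without treated GFP+ replicate 3 or without treated CD31+ replicate 1, 2 or 3, and with the mean of its probe sets (difference -0.30). Itga2b, the platelet chain, differed by -1.44 ± 0.51 (adjusted p = 0.0426), and this call was lost without treated GFP+ replicate 1 or 2, untreated CD31+ replicate 1 or 4, or treated CD31+ replicate 2, 3 or 4. After G-CSF, Itga7 differed by -1.28 (adjusted p = 0.0718) and Itgb4 by -0.95 (adjusted p = 0.159). Lamc1, at -0.89 after G-CSF, was not called (adjusted p = 0.0666), although its groups did not overlap. It passed in 7 of 28 alternatives. Among these were the fits without untreated GFP+ replicate 1 (adjusted p = 0.00749) or 2 (adjusted p = 0.0124). Others were the fit of only the arrays compared (adjusted p = 0.00792) and the mean of its probe sets (-1.11, adjusted p = 0.00569). Lamb1, at -0.37 after G-CSF, was not called either (adjusted p = 0.145), although its groups did not overlap. It passed with the mean of its probe sets (-0.64, adjusted p = 0.0148) and with each array centred on its median (-0.76, adjusted p = 0.00416). A test of the change between conditions itself called 0 of the 31 genes and 0 of all 13450, so it does not set these genes apart.

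With G-CSF, 1 of the 31 genes passed the test in CD31+ cells, Itga10, and 0 in GFP+ cells, where few genes of any kind were called. In GFP+ cells 0 of 31 were called by limma, where 0.23% of all genes were called, 0.186% as higher and 0.0446% as lower, and 5 had an unadjusted p under 0.05. The signals of the groups did not overlap for 4 of the 31, against 9.29% of all genes. In CD31+ cells 1 of 31 was called, where 1.6% of all genes were called, 0.454% as higher and 1.14% as lower, and 2 had an unadjusted p under 0.05. There the groups did not overlap for 3 of the 31, against 10.3% of all genes. The median difference over the 31 genes was 0.16 in GFP+ cells and 0.03 in CD31+ cells, beside -0.04 and -0.05 over all genes.

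**Figure D3:**
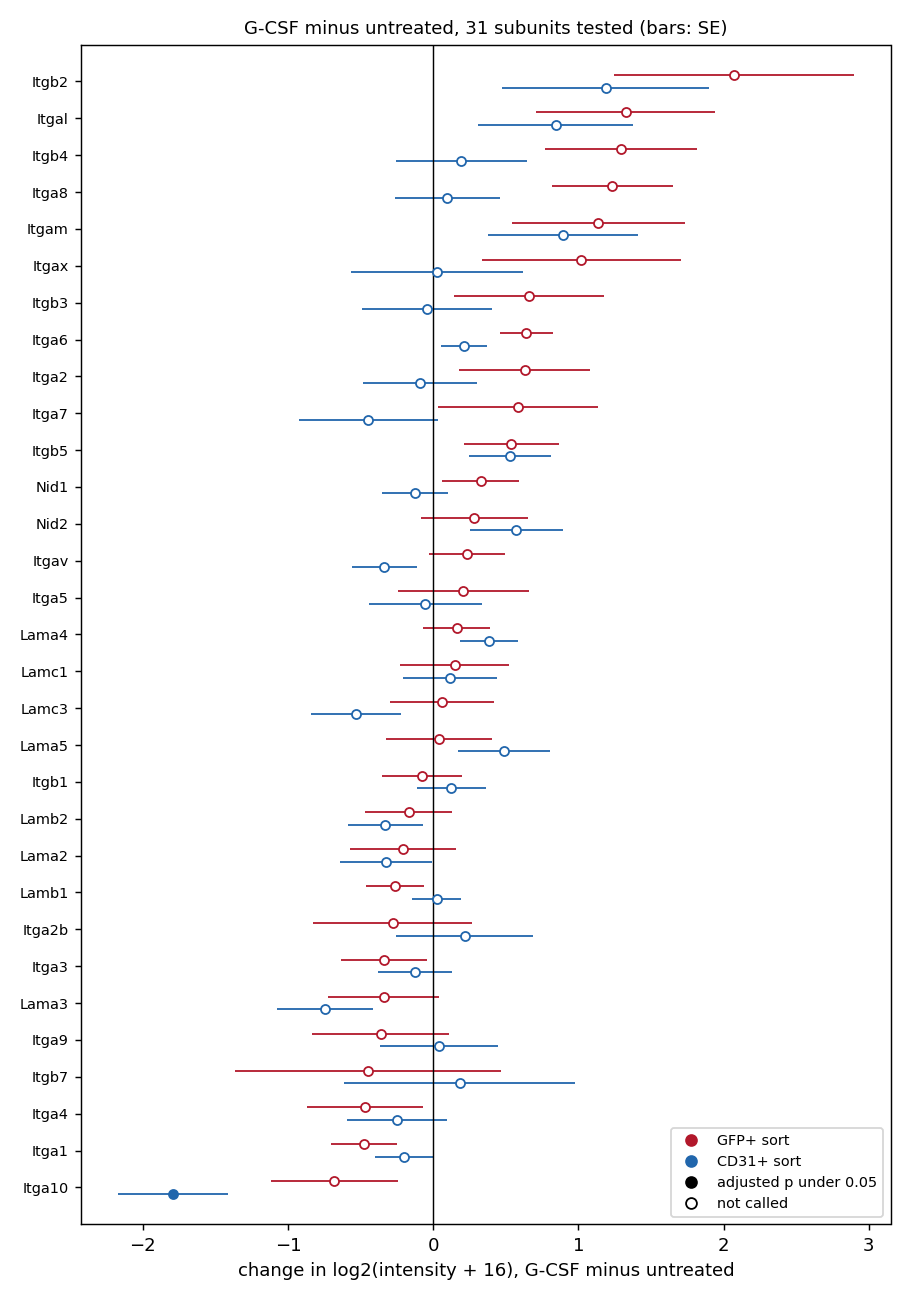
Change in signal with G-CSF for each gene tested, G-CSF minus untreated (x axis, log2 units, bars ± SE), in GFP+ and in CD31+ cells; filled points were called. The single filled point is Itga10 in CD31+ cells at -1.79, and the widest error bars belong to integrins of blood cells in GFP+ cells.

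Itga10 fell in CD31+ cells. Its signals were 9.30, 7.69, 8.44 and 9.15 in CD31+ cells after G-CSF, against 10.68, 9.48, 10.97 and 10.63 in untreated CD31+ cells. All treated arrays lay below all untreated ones, and the change was -1.79 ± 0.38, or 3.46-fold (adjusted p = 0.0341). In GFP+ cells Itga10 had signals of 11.49, 11.24 and 11.16 after G-CSF, against 12.54, 11.30 and 12.09 in untreated cells, a change of -0.68 ± 0.44 that was not called (adjusted p = 0.723). The changes in the GFP+ and CD31+ sorts differed by 1.11, with a 95% interval from -0.12 to 2.34, and this difference was not called. The call in CD31+ cells was near the threshold: with single arrays left out the change ran from -2.11 to -1.47, and it was lost without any 1 of 6 arrays, with adjusted p from 0.0506 to 0.117. These were treated GFP+ replicate 2, untreated CD31+ replicates 1, 3 and 4, and treated CD31+ replicates 2 and 3. It was also lost with quantile normalization (adjusted p = 0.0552) and with each array centred on its median (adjusted p = 0.0539). With the replicate number as a block within each sort, the change in CD31+ cells was -1.79 ± 0.22 and called (adjusted p = 0.00286). In that fit the change in GFP+ cells was not called (adjusted p = 0.301).

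**Figure D4:**
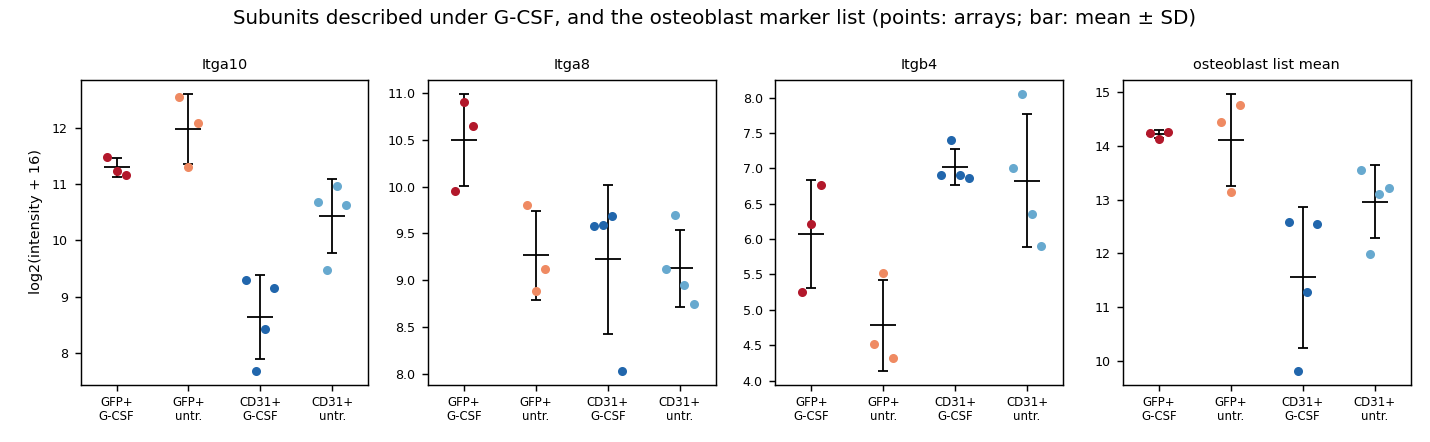
Signal of Itga10, Itga8 and Itgb4 on each array and the mean signal of the osteoblast markers (y axes, log2 of intensity plus 16), in GFP+ and CD31+ cells after G-CSF and untreated; points are arrays, and bars are the mean ± SD of 3 or 4 arrays. In CD31+ cells Itga10 and the osteoblast mean are on average lower after G-CSF, Itga10 at 7.69 to 9.30 against 9.48 to 10.97, and the osteoblast mean at 9.81 to 12.58 against 11.99 to 13.54.

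The osteoblast markers moved with Itga10 among CD31+ arrays. Their mean was 12.58, 9.81, 11.27 and 12.54 in CD31+ cells after G-CSF, against 13.54, 11.99, 13.10 and 13.22 in untreated CD31+ cells. In both groups the CD31+ array with the lowest osteoblast mean, replicate 2, had the lowest Itga10 signal, and the part of these markers in the Itga10 result was not tested.

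The other structural genes of the family had changes with G-CSF that did not pass the threshold. Itga6 in GFP+ cells had signals of 9.61, 9.69 and 9.90 after G-CSF, against 8.73, 9.43 and 9.12 in untreated cells. Its groups did not overlap, with a change of 0.64 ± 0.18 (adjusted p = 0.239), and without untreated replicate 2 it was 0.81 and called (adjusted p = 0.0178, with 3.53% of all genes called). Itga8 in GFP+ cells had signals of 9.95, 10.90 and 10.65 after G-CSF, against 9.80, 8.88 and 9.12 in untreated cells, without overlap, and its change of 1.23 ± 0.42 was not called (adjusted p = 0.336). Itgb4 in GFP+ cells changed by 1.29 ± 0.52 (adjusted p = 0.455). For Itgb1, the shared beta chain, the change was -0.08 in GFP+ cells, with a 95% interval from -0.66 to 0.51, and 0.13 in CD31+ cells, with an interval from -0.38 to 0.63. Lamb1 changed by -0.26 in GFP+ cells (interval -0.68 to 0.16) and by 0.02 in CD31+ cells (interval -0.34 to 0.39). Among the 10 laminins and nidogens tested, 0 were called in either sort, and their changes ran from -0.34 to 0.33 in GFP+ cells and from -0.75 to 0.57 in CD31+ cells. Lama3 in CD31+ cells, at -0.75 ± 0.33, had the lowest p-value of these (adjusted p = 0.338). Lama1, tested only without the brightness filter, had signals of 5.57, 6.35 and 4.45 in GFP+ cells after G-CSF, against 7.36, 7.13 and 7.06 in untreated GFP+ cells. These did not overlap, and the change of -1.73 ± 0.44 was not called (adjusted p = 0.203).

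The integrin chains of blood cells were measured in both sorts, although both were CD45-, and all but Itgae were bright enough to be tested. They are the beta chain Itgb2 with its partners Itgal, Itgam and Itgax, which serve adhesion and phagocytosis in leukocytes, the lymphocyte chains Itgb7 and Itgae, and the platelet chain Itga2b. Itgb2 had signals of 13.67, 11.85 and 11.20 in GFP+ cells after G-CSF and 9.42, 12.52 and 8.57 in untreated GFP+ cells. In CD31+ cells Itgb2 had signals of 12.79, 11.77, 13.02 and 13.13 after G-CSF and 11.95, 11.83, 11.77 and 10.41 in untreated cells. The untreated GFP+ arrays were split, with replicate 2 far above the other two, and the treated arrays lay on both sides of it. In untreated cells 0 of the 6 tested were called between sorts, with a median difference of -0.76. Without replicate 2 of untreated GFP+ cells, 5 of the 6 were lower in GFP+ cells (33.8% of all genes called): Itgb2 by -2.50 (adjusted p = 0.0047), Itgal by -1.95 (adjusted p = 0.00404), Itgax by -1.62 (adjusted p = 0.00702), Itgb7 by -1.93 (adjusted p = 0.0274) and Itga2b by -1.61 (adjusted p = 0.0128). Replicate 2 had been set apart for its high blood genes and was the highest of its group for all tested chains. Its removal could only lower the untreated GFP+ means, so these calls are no separate test. The Itgal probe sets also disagreed in sign between untreated sorts, at -1.09 and 0.40 with all arrays.

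**Figure D5:**
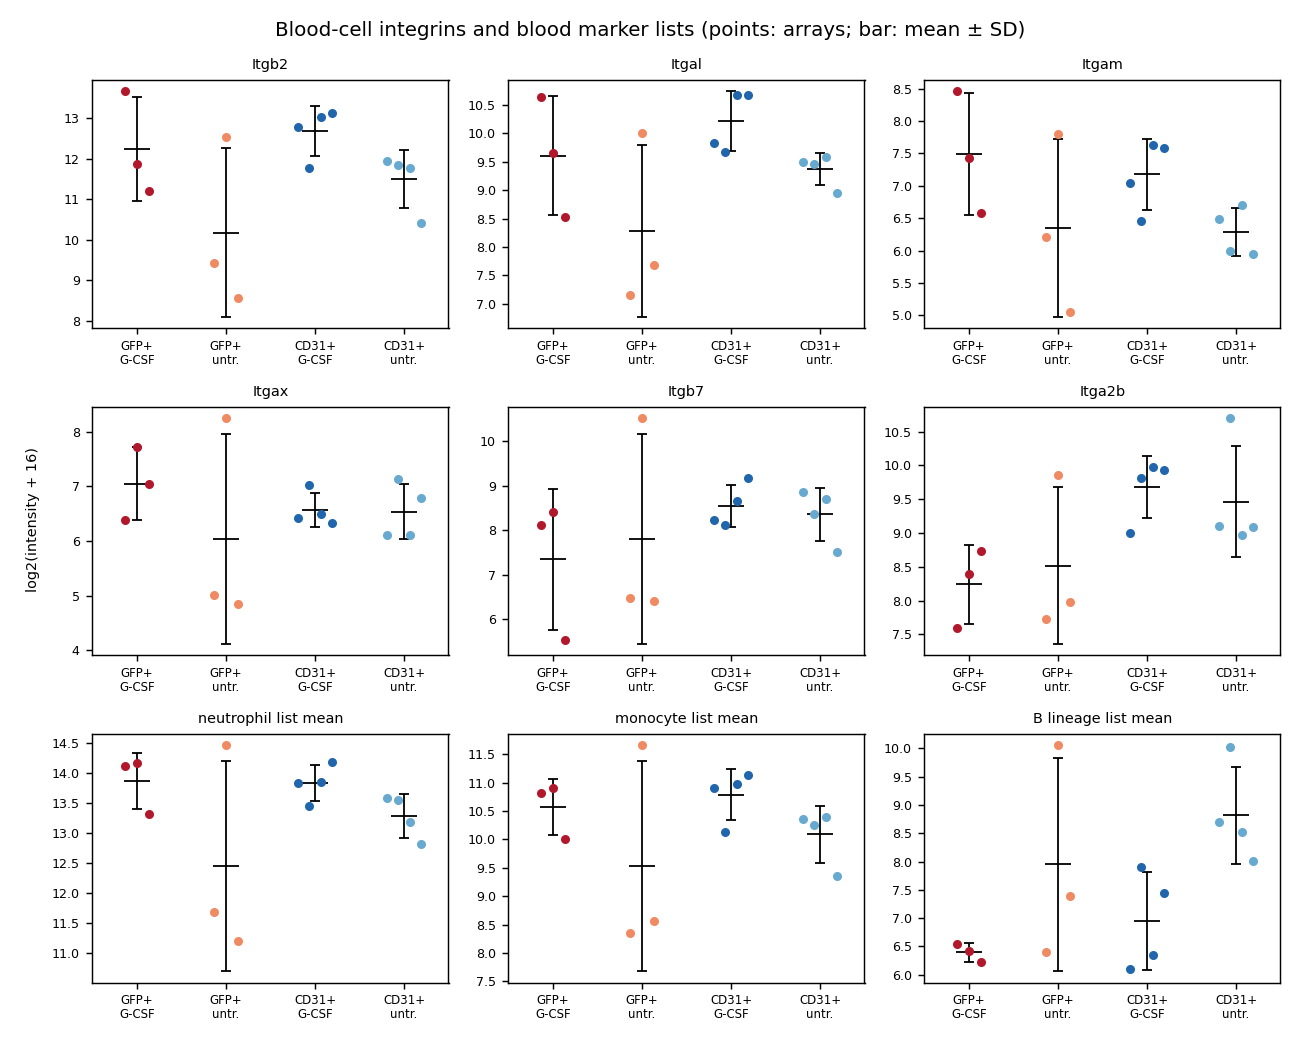
Signal of the 6 tested blood-cell integrin chains on each array, with the means of the neutrophil, monocyte and B lineage markers (y axis, log2 of intensity plus 16), in GFP+ and CD31+ cells after G-CSF and untreated; points are arrays, and bars are the mean ± SD of 3 or 4 arrays. Untreated GFP+ replicate 2 is the highest of its group for all tested chains, as for Itgb2 at 12.52 beside 9.42 and 8.57.

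With G-CSF, Itgb2 in GFP+ cells changed by 2.07 ± 0.82 (adjusted p = 0.447) and Itgal by 1.32 ± 0.62 (adjusted p = 0.561), neither of them called. The other Itgal probe set went the opposite way, with GFP+ means of 6.07 after G-CSF and 6.32 in untreated cells. Without untreated replicate 2 the changes were called for Itgb2 at 3.25 (adjusted p = 0.00743), Itgal at 2.19 (adjusted p = 0.0173) and Itgax at 2.13 (adjusted p = 0.0105). In that fit 3.53% of all genes were called. The array was left out for its high blood genes, so these calls depend on that choice and are no separate test of the chains. With replicate 2 included, the neutrophil marker mean was 13.33 to 14.17 in GFP+ cells after G-CSF, against 11.21 to 14.47 in untreated GFP+ cells. The monocyte and macrophage mean was 10.01 to 10.90 in GFP+ cells after G-CSF, against 8.35 to 11.66 in untreated GFP+ cells. In CD31+ cells the 6 tested chains had changes from 0.03 to 1.19, with a median of 0.53, and 0 were called, while the neutrophil mean was 13.45 to 14.19 after G-CSF and 12.81 to 13.59 in untreated cells. The part of other blood cells in these values was not tested.

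Genes that work with these receptors were taken as 3 lists: adaptors that link integrins to actin, other basement membrane genes, and integrin ligands outside the basement membrane. Of the 28 adaptors tested of 32, 2 were higher and 8 lower in untreated GFP+ cells, with a median difference of -0.20, where 26.4% of all genes were called. The lowest was Lims2, which joins integrin-linked kinase in the adhesion complex, at -5.14 ± 0.35 (adjusted p = 1.06e-07). Parvb, another partner of that kinase, was at -2.62, Tns1, a tensin that binds beta chain tails, at -2.37, and Pxn, the scaffold paxillin, at -1.68. Of 19 other basement membrane genes tested of 23, 1 was higher and 10 were lower, with a median of -1.10. Tinagl1, a matrix protein that binds laminin and integrins, was at -4.05 ± 0.34, Pxdn, the peroxidase that crosslinks type IV collagen, at -4.05 ± 0.20, the fibulin Fbln2 at -3.40 and the collagen chain Col4a2 at -2.55. The 1 higher gene, named after its value was seen, was the fibulin Fbln1 at 2.53. Of 17 ligands tested, from 21 listed symbols, 6 were higher and 5 lower, with a median of 0.70. The listed symbols Cyr61 and Ctgf are older names of Ccn1 and Ccn2, which were tested. Postn, the bone and tendon matrix protein periostin, was at 4.79 and Edil3, a ligand of Itgav, at 4.58, whereas Icam2, the endothelial ligand of Itgal with Itgb2, was at -3.96 and the vitronectin gene Vtn at -3.89.

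After G-CSF the adaptors again had 2 higher and 8 lower, the other basement membrane genes 4 and 9, and the ligands 9 and 4, where 31.9% of all genes were called. The median differences were -0.24, -0.94 and 1.08. G-CSF called 0 genes of any list in GFP+ cells. In CD31+ cells it called 0 adaptors, and 1 basement membrane gene fell, Smoc1, at -1.32 ± 0.31 (adjusted p = 0.0479). Of the 17 ligands tested 3 fell and 1 rose, with a median change of -0.73, where 1.6% of all genes were called. On the same arrays all 6 osteoblast markers had changes below 0, with a median of -1.48, and Ibsp is on both lists. Their part in the ligand changes was not tested. The falls were Vcam1, the ligand of Itga4 with Itgb1, at -2.04 ± 0.24 (adjusted p = 0.00106), the thrombospondin Thbs1 at -1.90 ± 0.42 (adjusted p = 0.0399) and the matricellular gene Ccn2 at -1.06 ± 0.24 (adjusted p = 0.0399). Tgfbi, a matrix protein that binds several integrins, rose at 1.19 ± 0.28 (adjusted p = 0.045). Vcam1 had a mean of 11.48 ± 0.46 in CD31+ cells after G-CSF and 13.52 ± 0.32 in untreated CD31+ cells (SD, n = 4 each).

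The balance between higher and lower calls depended on the level to which arrays were scaled. The arrays had been scaled to a trimmed mean of 500, which left CD31+ arrays with lower medians than GFP+ arrays. Centring each array on its median moved the median difference over all genes by -0.23 between untreated sorts and by -0.39 between sorts after G-CSF. The share of calls that were higher in GFP+ cells was then 32.5% in place of 51.5% in untreated cells, with 28.4% of all genes called, and 26.8% in place of 54.8% after G-CSF, with 40.3% called. For G-CSF in CD31+ cells the centring moved the median by 0.18, and 59.7% of calls were then higher in place of 28.4%, with 1.03% of all genes called. The 5 genes higher in untreated GFP+ cells, the 8 lower ones and all 11 called in both conditions kept their sign under this and every other alternative run.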

How the data were processed

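The authors deposited 1 table per array, holding 1 linear intensity for every probe set, made with Affymetrix Expression Console 1.1 per the submitters' processing notes. How probes were summarised is not stated in the labels. The 2%-trimmed mean was 500 on all 14 arrays, so the values had been scaled and were not normalised again. Of 45101 probe sets, 64 controls, 932 with several gene symbols and 9160 with none were left out. The platform annotation gave 77 probe sets for the 36 genes, and 15 of these genes have 1 probe set. The dimmest 0.333 of probe sets by mean signal (log2 below 5.78) was dropped, each gene was read from its brightest remaining probe set, and 4 group means were fitted to log2 of intensity plus 16 in limma 3.58.1 (R 4.3.3), with a trend in the variance and 2-sided p-values adjusted by Benjamini and Hochberg. The fit was tested on simulated data. Genes, lists and tests were chosen with earlier results of these data known. Values per array were given for genes called with G-CSF, for those that differed most in each role and for the main partner chains. Up to 4 called genes with the largest change were named per list between untreated sorts and with G-CSF. Between sorts after G-CSF the lists were given by counts and medians only. Replicate numbers come from the titles. Deviations from the group means of arrays with the same number correlated at 0.223 to 0.315 between GFP+ groups and at 0.102 to 0.377 between CD31+ groups. Treated CD31+ replicate 4 correlated at 0.102 with its own number and at 0.178 with another. For every other treated array the own number gave the highest correlation. Their best value with another number was between -0.148 and 0.014. The main fit took no account of the number, and an alternative fit used it as a block within a sort. Promoters are from RefSeq, GRCm38.p6. Protein sequences were not used here.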

Additional observations from a re-analysis of the deposited data

Results flagged for a closer look

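In groups of 4 arrays, 8 of 72 values of a gene in a group had 1 array set apart from the other 3 by Dixon's test at its 95% critical value, and chance alone flags about 1 in 20 groups. All lie in CD31+ cells, because GFP+ groups of 3 arrays were not looked at. After G-CSF, Itga2b was at 8.99 on replicate 1, against 9.82 to 9.97 on the others. After G-CSF, Itga8 was at 8.03 on replicate 4, against 9.58 to 9.69 on the others. After G-CSF, Itgb4 was at 7.41 on replicate 2, against 6.87 to 6.91, and Lama1 at 5.01 on replicate 4, against 4.18 to 4.25. Among untreated arrays, Itga2b was at 10.70 on replicate 2, against 8.97 to 9.10, and Lama3 at 9.05 on the same replicate, against 8.09 to 8.21. Itgb2 was at 10.41 on untreated replicate 4, against 11.77 to 11.95, and Lamb2 at 11.63 on untreated replicate 3, against 12.19 to 12.29.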

How the results depend on the processing

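Each gene's comparisons were refitted under 27 to 29 alternatives, 14 of which leave out 1 array each, and 0 called results changed sign. Of the 13 genes called between untreated sorts 9 were called under all alternatives run for them, and of the 14 called after G-CSF 10 were. Of those not called, 10 of 18 between untreated sorts, 6 of 17 after G-CSF and 4 of 31 with G-CSF in GFP+ cells passed under some alternative. Genes outside the blood-cell group that were higher in untreated GFP+ cells numbered 5, but 8 with no filter on dim probe sets and 3 at an adjusted p under 0.01. With each array centred on its median, 13 in place of 8 were lower in untreated cells and 12 in place of 7 after G-CSF. Blood-cell integrins lower in untreated GFP+ cells numbered 0, but 4 with array weights and 4 without the 2 arrays with high blood or muscle genes, and 0 to 5 with 1 array left out, the highest without untreated GFP+ replicate 2. After G-CSF this count was 1, but 0 with no filter and at an adjusted p under 0.01, and 0 to 1 with 1 array left out. With G-CSF in GFP+ cells, 0 other genes and 0 blood-cell integrins were higher. Without the 2 arrays these were 1 and 3. With 1 array left out they were 0 to 1 and 0 to 3, the highest without untreated GFP+ replicate 2 (3.53% of all genes called). The 1 gene lower with G-CSF in CD31+ cells became 0 with quantile normalization, with centring and at an adjusted p under 0.01, and 0 to 1 with 1 array left out. The cause was not tested. With the replicate number as a block within each sort, no call of these genes with G-CSF changed, and Itga10 in CD31+ cells had an adjusted p of 0.00286. Numbers shared across sorts mostly did not pair the arrays, with correlations of -0.011 to 0.271. The exception was untreated replicate 2, at 0.271 with its own number and at most -0.004 with another. As a replicate block across cell types the numbers gave 11 lower genes in untreated cells. After G-CSF, Itga4 was lost with that block, with centring, with quantile normalization and without 5 single arrays, and Itga8 with centring and without 2 GFP+ arrays (replicates 2 and 3). Without a filter, 180 genes in place of 215 were called with G-CSF in CD31+ cells.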
